A study of Mus musculus with 8 samples.

Results

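The respiratory chain was followed through the transcripts of its own subunits. A gene was counted as a member when its symbol marked it as a subunit of NADH dehydrogenase (complex I), succinate dehydrogenase (complex II), the cytochrome bc1 complex (complex III), cytochrome c oxidase (complex IV) or ATP synthase (complex V), whichever genome encodes it. This gave 97 members among the 15867 genes in the deposited table. The nucleus encodes 84 of them, with 39 in complex I, 4 in complex II, 9 in complex III, 15 in complex IV and 17 in complex V. The mitochondrial genome encodes the other 13, with 7 in complex I, 1 in complex III, 3 in complex IV and 2 in complex V. Symbols alone decided membership. Ndufa4 and Ndufa4l2 were therefore placed in complex I although NDUFA4 is known as a cytochrome c oxidase subunit, and Ndufb4c, which the annotation types as a processed pseudogene, was kept. Atp5s, Cox7b2, Cox8b and Cox8c also fit the rule in the annotation and were not analysed here.

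The libraries were poly(A)-selected RNA from F4/80+ macrophages of adipose tissue, taken from mice after 20 weeks of high-fat diet. The control group (4 libraries) was Mirc11fl/fl Mirc22fl/fl Lyz2+/+ and the knockout group (4 libraries) was Mirc11fl/fl Mirc22fl/fl Lyz2Cre/Cre. All 8 samples thus carried the floxed alleles of both microRNA clusters, which encode microRNAs of the miR-24, miR-23 and miR-27 families, and the knockout samples also carried Cre in both Lyz2 alleles, which drives it in myeloid cells. No group had Cre with intact clusters, so loss of the clusters, Cre and loss of Lyz2 cannot be told apart. The labels do not say whether a replicate was 1 mouse, so the p-values speak only to how far these libraries spread, which may be technical.

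Complexes I, III and IV pump protons out of the mitochondrial matrix while passing electrons to oxygen, complex II feeds electrons from succinate without pumping, and complex V uses the proton gradient to make ATP. All but complex II are built from subunits of both genomes, so their assembly draws on nuclear transcripts translated in the cytosol and on transcripts made and translated inside mitochondria. Macrophages are known to shift between respiration and glycolysis with their activation state, and succinate oxidation at complex II has been tied to inflammatory responses.

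Recovered reads, which are the deposited values divided by the worth of a single read in each library, ranged from 31789395 to 46621080 per library. Mitochondrially encoded members took 1.72% to 2.28% of them (561580 to 1055075 reads) and nuclear members 0.598% to 0.649% (197049 to 290833 reads). Lyz2, the gene that carries the Cre insertion, had a normalized count of 156727 to 204853 in controls and 174 to 273 in knockout libraries. By the main test 6 of 14 general macrophage markers were lower in the knockout group and none was higher. They were Lyz2, Itgam, Mpeg1, Msr1, Cd68 and Csf1r. Over all genes tested 2.38% were called lower. Lyz2 holds the Cre insertion in both knockout alleles, so its call says nothing of macrophage content. The median log2 difference of the 14, Lyz2 included, was -0.43. No marker of adipocytes (of 7), endothelial cells (of 6), fibroblasts (of 6), T cells (of 5) or B cells (of 4) passed that test. Their list medians were 0.41, 0.52, 0.35, 0.71 and 0.53. Of these 28 markers 11 had an unadjusted p under 0.05 by limma, all higher, against 1706 of 15862 genes tested. edgeR called none of them and DESeq2 called 4 (Lep, Plin1, Emcn and Col1a1). Over all genes edgeR called 3.51% and DESeq2 10.9% in either direction. Summed endothelial markers ranged from 36847 to 67109 in controls and from 60053 to 85051 in knockout libraries. Fewer cells of a type and less RNA per cell cannot be told apart in such bulk samples. The part these markers play in the values below was not tested.

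Differences between groups are given as knockout minus control on the log2(normalized count + 1) scale, from limma fitted to the 15862 genes with a mean normalized count of at least 10, with Benjamini-Hochberg adjustment over all of them and a threshold of 0.05. All 97 members were in that fit. A single member passed, Ndufa3 in complex I, which was higher in the knockout group. That is 1.03% of the members, against 3.61% of all genes tested (1.24% called higher and 2.38% called lower). No member was called lower by limma, and 4 were lower and 2 higher at an unadjusted p under 0.05, against 21.2% of all genes in either direction. With libraries scaled to the same total, calls over all genes moved from 196 higher and 377 lower to 245 higher and 244 lower, and Ndufa3 was again the member called.

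Most members differed little between the groups. For 90 of 97 members (92.8%) the log2 difference lay within 0.2 of 0, against 63.0% of all genes tested. The median standard error was 0.065 for the members and 0.106 for all genes. Nuclear members had a median difference of -0.047, with 58 of 84 below 0, and mitochondrially encoded members one of 0.057, with 11 of 13 above 0, beside 0.0021 for all genes. The nuclear direction depends on scaling. With libraries scaled to the same total the medians were 0.011 for nuclear members (49 of 84 above 0), 0.116 for mitochondrially encoded members and 0.060 for all genes, so the nuclear median lay below that of all genes in both scalings. Leaving out single libraries moved the nuclear median between -0.061 and -0.026 (without knockout replicate 4) and the mitochondrial median between 0.013 (without control replicate 3) and 0.143 (without control replicate 1).

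**Figure D1:**
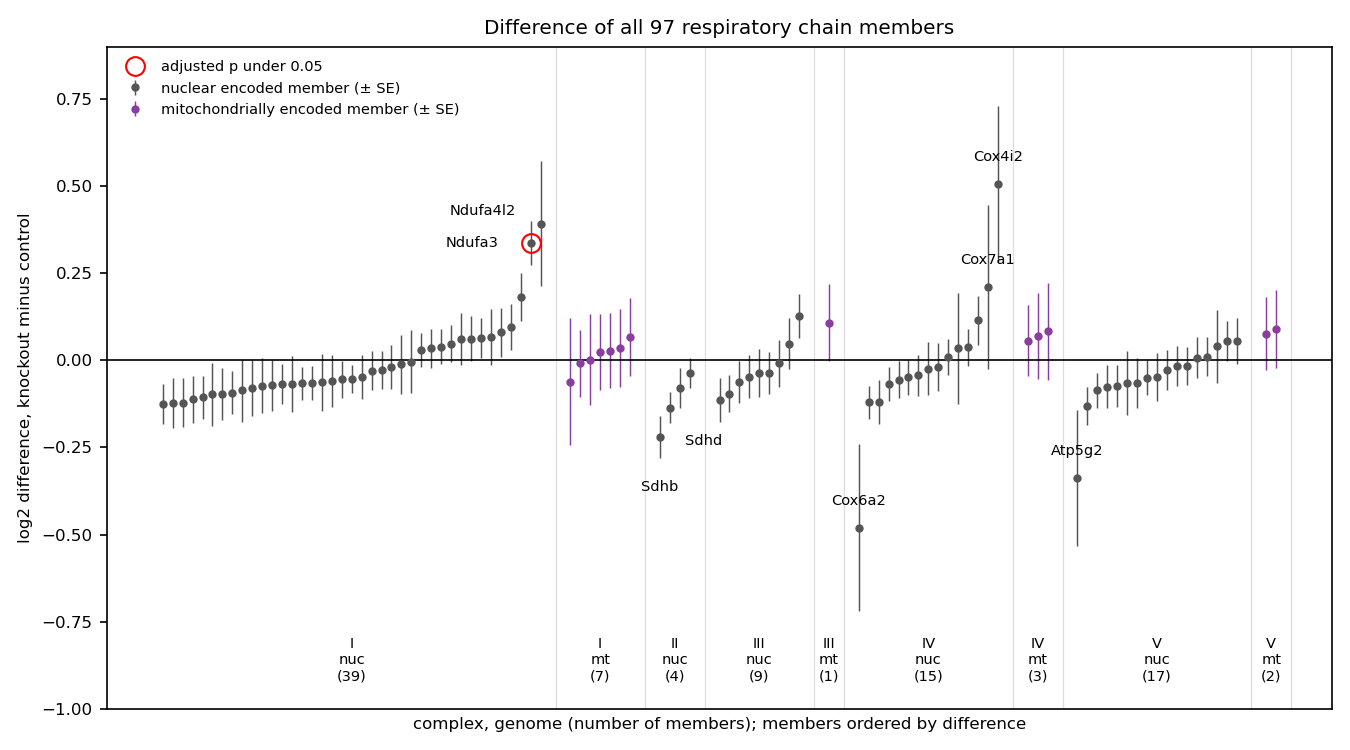
Log2 difference (knockout minus control) of each of the 97 members, grouped by complex and by the genome that encodes it, with nuclear (nuc) and mitochondrially encoded (mt) groups side by side; points are limma estimates and bars their standard errors. The circled point is Ndufa3 at 0.34, the member that passed the test, and the 4 longest bars belong to the nuclear members Cox6a2, Cox7a1, Cox4i2 and Atp5g2, all of low count, followed by the mitochondrially encoded mt-Nd3.

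Ndufa3 encodes a small accessory subunit of complex I. Its normalized counts were 1299, 1492, 1387 and 1485 in the controls, in the order of their replicate numbers, and 1917, 1759, 1735 and 1742 in the knockout libraries in the same order. Every knockout library lay above every control library. The log2 difference was 0.34 (SE 0.06, n = 4 and 4, adjusted p = 0.0258 by limma). On recovered reads it was called by edgeR (adjusted p = 0.0268) and DESeq2 (adjusted p = 0.000181) as well. The authors' deposited table, which divides control by knockout, gives a log2 fold change of -0.34 with an adjusted p of 0.000181. The limma call did not survive the loss of control replicate 3 or of any knockout library, since the adjusted p was 0.0761 without control replicate 3, 0.0707 without knockout replicate 1, 0.0554 without knockout replicate 2, 0.0608 without knockout replicate 3 and 0.0599 without knockout replicate 4. The difference itself stayed between 0.30 and 0.36.

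In GENCODE M21 on mm10, Ndufa3 lies on the plus strand at chr7:3617373-3620327. None of its 4 measured neighbours on the chromosome was called higher. Tfpt, on the opposite strand and sharing 4 bases with it, differed by -0.15 (adjusted p = 0.527), Prpf31 by -0.16 (adjusted p = 0.203), Cnot3 by 0.016 (adjusted p = 0.906) and Mboat7 by -0.25 (adjusted p = 0.0505, not called).

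The microRNAs of the floxed clusters guide silencing through base pairing of their seed (bases 2 to 8) with sites in 3' untranslated regions. They are shown with the seed in capitals because the members were searched for the 7 bases that pair with it, alone or followed by an A. RefSeq (GRCm38.p6) lists these mature forms, 5′ to 3′. miR-27a-3p and miR-27b-3p share their seed, and miR-24-3p is made from both clusters.
mmu-miR-23a-3p: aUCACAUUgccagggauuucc
mmu-miR-24-3p: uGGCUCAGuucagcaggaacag
mmu-miR-27a-3p: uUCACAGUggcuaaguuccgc
mmu-miR-27b-3p: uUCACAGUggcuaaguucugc

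An 8-base match to at least 1 of the 3 families (AATGTGAA for miR-23, CTGAGCCA for miR-24, ACTGTGAA for miR-27) was present in the longest annotated 3' untranslated region of 10 of 82 members, or 12.2%. Over all 14760 genes with such a region the share was 19.7%. The members' regions are short, with a median of 202 bases against 1182 bases for all genes, so the shares compare windows of unequal length. Ndufa3 and Uqcrfs1 (the Rieske iron-sulphur protein of complex III) held the miR-23 match, Atp5md and Sdha the miR-27 match, and Atp5d, Atp5g1, Cox7a2l, Ndufa12, Ndufa13 and Sdhc the miR-24 match. The 10 members with an 8-base match had a median difference of -0.026, from -0.13 in Atp5g1 to 0.34 in Ndufa3. The 15 members with a 7-base or 8-base match had a median of -0.036, with 10 below 0. The 67 nuclear coding members with neither a 7-base nor an 8-base match had a median of -0.048, with 46 below 0. Of the 2 members that held the miR-23 match, Ndufa3 was called, and Uqcrfs1 differed by -0.037 and was not called. The part of these matches in the differences was not tested.

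The Ndufa3 match lies at chr7:3620141-3620148, bases 49 to 56 of a 235-base 3' untranslated region. It follows directly on an AATAAA hexamer, the usual polyadenylation signal, at bases 43 to 48. A shorter coding transcript of the gene ends at position 3620128 of the chromosome, ahead of the match. The table gives gene totals, so the transcripts were not told apart here. The 8-base match is in capitals below, and its last A stands opposite base 1 of miR-23a-3p without pairing. Ndufs4, the complex I member with the next smallest p, holds 7-base matches to miR-23 at bases 96 to 102 and 240 to 246 and to miR-27 at bases 27 to 33 of a 968-base region. Cox6a2 and Ndufv1 also held a 7-base miR-23 match and differed by -0.48 and -0.054. The first miR-23 match of Ndufs4 is shown for comparison, with 7 capitals.
Ndufa3: tctccaataaaAATGTGAAaactaataacc
Uqcrfs1: tggcaaacattAATGTGAAgtaattgaatt
Ndufs4: atctcctaataAATGTGAcctttaaacta

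Ndufs4 encodes an accessory subunit at the NADH-oxidizing end of complex I. It had normalized counts of 1029, 981, 925 and 976 in controls and 999, 1143, 1207 and 1096 in knockout libraries. Knockout replicate 1 fell inside the control range and the other 3 lay above it. The difference was 0.18 (SE 0.07), which did not pass (limma adjusted p = 0.183).

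The remaining nuclear members of complex I lay on both sides of 0. Of 39 members 26 were below 0, with a median of -0.053 and a range from -0.12 to 0.39. Ndufb8, the nuclear complex I member with the highest level per transcript length, had 2865 ± 110 in controls and 2926 ± 105 in knockout libraries (mean ± SD, n = 4 each), a difference of 0.030.

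Ndufs1, the largest core subunit, was singled out after its values were seen, as the complex I member whose libraries did not overlap in the downward direction. Its counts were 2809, 2621, 2557 and 2550 in controls and 2211, 2455, 2491 and 2512 in knockout libraries. The lowest control lay only slightly above the highest knockout library, and the difference of -0.12 did not pass (adjusted p = 0.260). Ndufs1 shares 489 of its 8086 exon bases with Ino80dos on the opposite strand, and no label states whether the counting used strand.

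Groups did not overlap for 5 members, which is 5.15% of them. Over all genes tested that share was 13.7%, with 5.52% higher and 8.21% lower in the knockout group. Ndufa3 was the one that was higher. Sdhb, Sdhd, Cox7a2 and Ndufs1 were the lower ones.

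Complex II has 4 subunits, all nuclear, and all 4 had a difference below 0 with the deposited scaling. Sdhb encodes the iron-sulphur subunit. Its counts were 3474, 3376, 3116 and 3413 in controls and 2901, 2879, 3076 and 2638 in knockout libraries. All knockout libraries lay below all control libraries, with knockout replicate 3 only slightly below control replicate 3. The difference was -0.22 (SE 0.06) and did not pass by limma (adjusted p = 0.0832) or edgeR (adjusted p = 0.0982), while DESeq2 called it (adjusted p = 0.0185).

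Sdhd encodes a membrane anchor of complex II that binds ubiquinone. It had 2813, 2661, 2660 and 2793 in controls and 2418, 2445, 2539 and 2540 in knockout libraries. These groups did not overlap either. The difference was -0.14 (SE 0.04, limma adjusted p = 0.130, DESeq2 adjusted p = 0.0486). With libraries scaled to the same total the differences of Sdhb and Sdhd shrank to -0.16 and -0.077.

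Sdha, the flavoprotein that oxidizes succinate, had 8993 ± 181 in controls and 8774 ± 207 in knockout libraries, a difference of -0.036 that became 0.023 with libraries scaled to the same total. The summed complex II transcripts were 18684 ± 531 in controls and 17552 ± 510 in knockout libraries, a ratio of 0.939 with overlapping groups. The ratio was 0.979 with libraries scaled to the same total. Of the 97 members, 3 have an adjusted p under 0.05 in the authors' deposited table, Ndufa3, Sdhb and Sdhd, which is 3.09% of the members against 10.9% of the genes with an adjusted p there. DESeq2 on recovered reads called the same 3, again against 10.9%. edgeR called 1 member, against 3.51% of all genes.

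**Figure D2:**
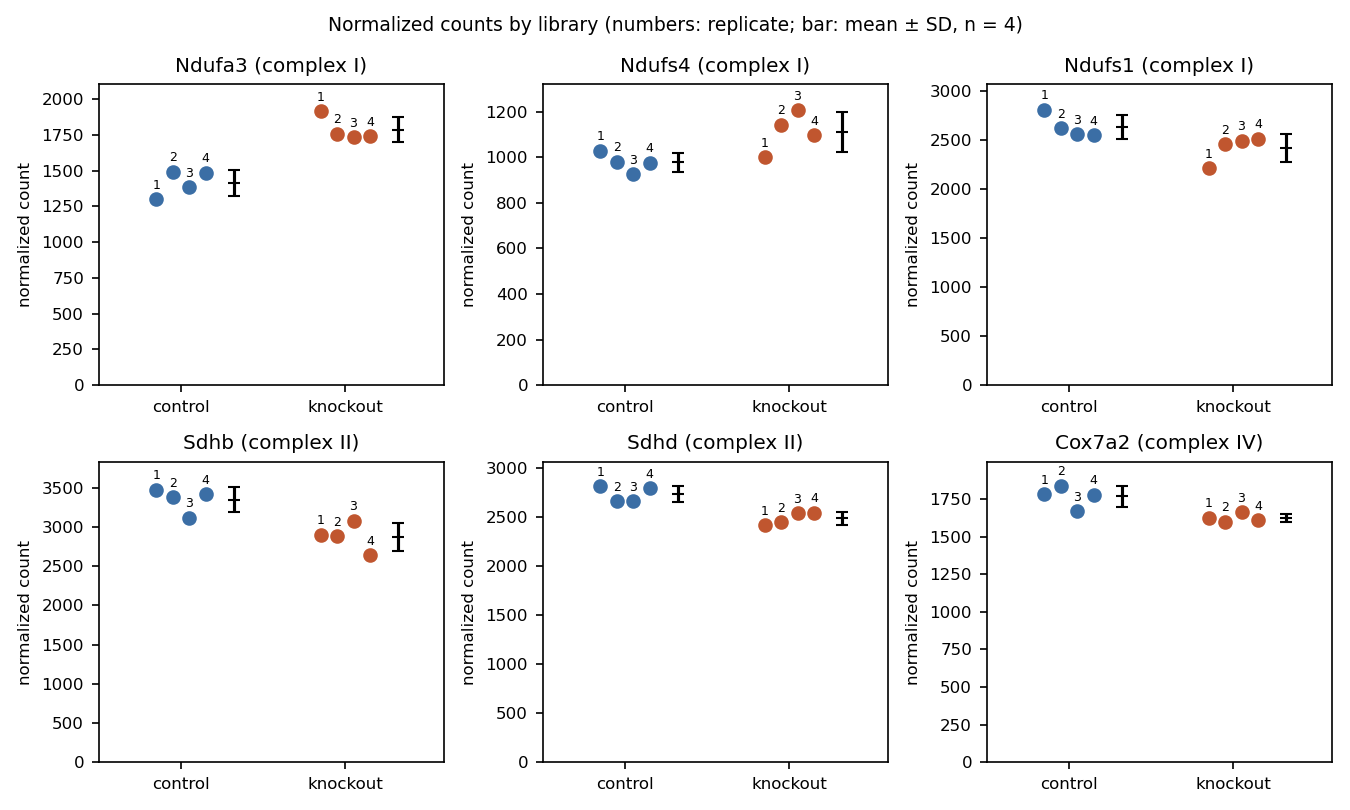
Normalized count (vertical axes, from 0) of 6 members in each of the 4 control and 4 knockout libraries, with replicate numbers beside the points and mean ± SD at the right of each group. Ndufa3 is higher in every knockout library, Ndufs1, Sdhb, Sdhd and Cox7a2 are lower in every knockout library by small margins, and the Ndufs4 groups overlap.

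In complex III no nuclear member passed by limma, edgeR or DESeq2, and none of the 9 had an unadjusted limma p under 0.05. Uqcr10, a small subunit of the bc1 complex, had the largest difference, 0.13 (1491 ± 46 in controls, 1631 ± 125 in knockout libraries, adjusted p = 0.291). Uqcrc1, a core protein of the complex, had 6070.5 ± 240 and 5684 ± 266, a difference of -0.095 (adjusted p = 0.333). Uqcrh, the hinge protein, was the most abundant per length, with a difference of -0.063. The median over the 9 was -0.037.

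Complex IV held the largest differences in either direction, and these sat in isoforms of low level. Cox4i1, the ubiquitous form of subunit 4, had the highest level per transcript length of all nuclear members, 14928 normalized counts per kilobase in controls. Its counts were 11420 ± 437 in controls and 11036 ± 314 in knockout libraries, a difference of -0.049 that became 0.0098 with libraries scaled to the same total. Cox4i2, the alternative form known from lung and vessel walls, stood at 237 normalized counts per kilobase. Its counts were 105, 196, 205 and 189 in controls and 267, 188, 272 and 239 in knockout libraries. Control replicate 1 was far below the other controls and knockout replicate 2 fell inside the control range. The difference of 0.51 (SE 0.22) did not pass (adjusted p = 0.236) and was 0.28 without control replicate 1.

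Ndufa4l2, which replaces Ndufa4 in hypoxic cells and is also known from the cells that wrap small vessels, had a similar library order. Its counts were 526, 998, 808 and 665 in controls and 1110, 857, 967 and 914 in knockout libraries. The groups overlapped and control replicate 1 was lowest. The difference of 0.39 (SE 0.18) did not pass (adjusted p = 0.251) and was 0.24 without control replicate 1. Ndufa4 itself had 2508 ± 196 and 2470 ± 74, a difference of -0.019, which turned to 0.040 with libraries scaled to the same total.

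Markers of vessel wall cells, and of other cell types, varied in the same libraries. The sum over 7 mural cell markers, a list chosen after the values were seen (Rgs5, Pdgfrb, Kcnj8, Abcc9, Notch3, Higd1b and Cspg4), was 27870, 51854, 42218 and 33979 in controls and 59700, 44396, 50414 and 50766 in knockout libraries. The endothelial sum was 36847, 67109, 57466 and 43262 in controls and 85051, 62007, 60053 and 81689 in knockout libraries. Control replicate 1 was lowest and knockout replicate 1 highest for both sums and for Ndufa4l2, and control replicate 1 was lowest for Cox4i2. This order was not particular to vessel wall cells. The adipocyte sum was 43876, 64295, 54675 and 47575 in controls and 79456, 58028, 54398 and 91004 in knockout libraries. The T cell and B cell sums were highest in knockout replicate 1 (507 and 1820) but lowest in control replicate 2. The fibroblast sum was highest among controls in replicate 1. No mural marker was called by limma or edgeR, 4 of 7 had an unadjusted limma p under 0.05, and DESeq2 called Higd1b and Pdgfrb. Over all genes 21.2% had such a p and DESeq2 called 10.9%, in either direction. The part of any of these cell types in the values of Cox4i2 and Ndufa4l2 was not tested.

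**Figure D3:**
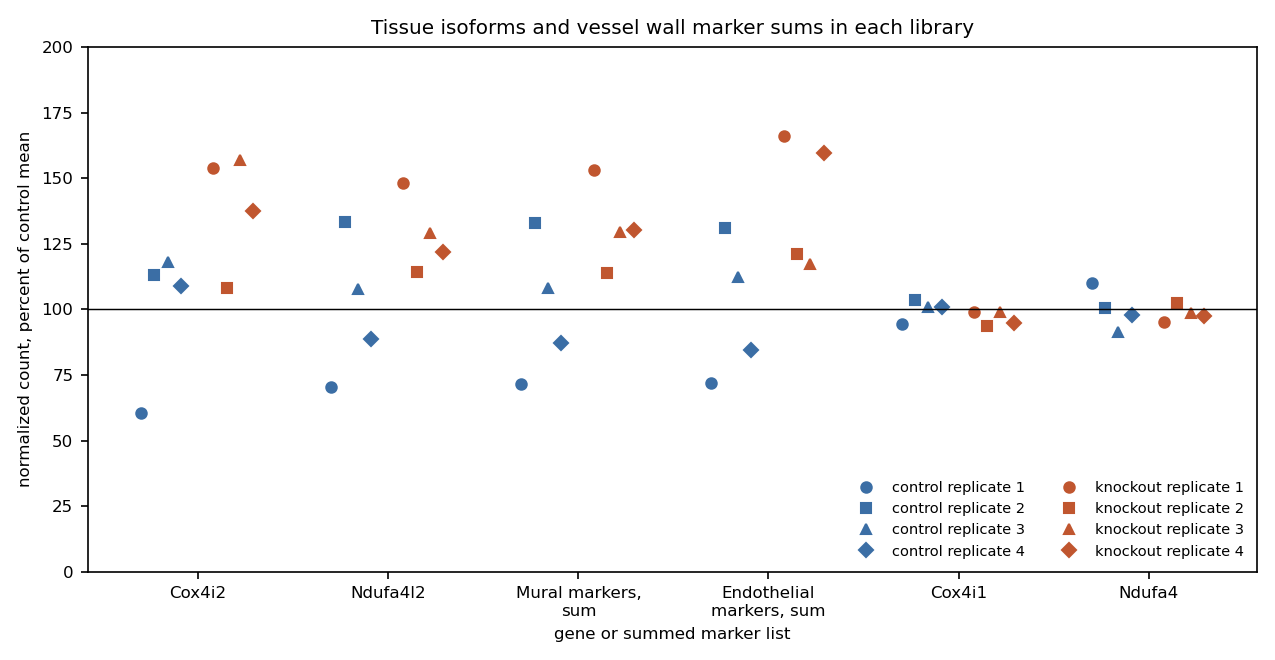
Normalized count as percent of the control mean (vertical axis) for Cox4i2 and Ndufa4l2, for the summed mural and endothelial markers, and for the ubiquitous forms Cox4i1 and Ndufa4, with each point a library. Control replicate 1 is lowest among controls in the first 4 columns, and Cox4i1 and Ndufa4 stay near 100 in all 8 libraries. The adipocyte sum, which is not drawn, was also lowest among controls in replicate 1.

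The other tissue isoforms of complex IV were close to the lowest levels among the members. Cox6a2, the heart and skeletal muscle form, had 35, 28, 53 and 50 in controls and 31, 33, 28 and 24 in knockout libraries, a difference of -0.48 (SE 0.24, adjusted p = 0.291) with overlapping groups. It had the lowest level per length of all members, 61.4 normalized counts per kilobase, and shares 70 of its 680 exon bases with Itgad, an integrin gene on the opposite strand. Cox7a1, the muscle and brown fat form, had 57 ± 17 in controls and 64 ± 10 in knockout libraries, a difference of 0.21 (SE 0.24) that was 0.044 without control replicate 1 and 0.34 without control replicate 3. Cox6b2, known from testis, had 60 ± 9 and 61 ± 4. Ucp1 and Cidea, which define brown adipocytes, and Ckm, Myh4 and Mb, which define muscle, were not analysed here. The summed markers that were measured came to 112 to 177 for brown adipocytes and to 111 to 269 for muscle, Cox7a1 and Cox6a2 included.

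The ubiquitous partners of these isoforms differed by 0.12 or less and none passed the test. Cox6a1 had 4166 ± 140 in controls and 4051 ± 284 in knockout libraries (difference -0.042, and 0.016 with libraries scaled to the same total). Cox6b1 had 3599 ± 161 and 3463 ± 158 (difference -0.055, and 0.0034 in that scaling). Cox8a had 3756 ± 185 and 3460 ± 243 (difference -0.12, adjusted p = 0.312). Cox7a2l, which helps join complexes III and IV into supercomplexes, had 5242 ± 269 and 5277 ± 194 (difference 0.010).

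Cox7a2, the ubiquitous form of subunit 7a, had 1781, 1837, 1670 and 1778 in controls and 1626, 1599, 1663 and 1607 in knockout libraries. The groups did not overlap, though control replicate 3 was only slightly above knockout replicate 3. The difference was -0.12 (SE 0.05, adjusted p = 0.194), and -0.062 with libraries scaled to the same total.

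In complex V none of the 17 nuclear members passed by limma, edgeR or DESeq2, and 1 had an unadjusted limma p under 0.05. That was Atp5g1, which encodes the c subunit of the rotating ring. It had 2070, 1910, 2001 and 1882 in controls and 1781, 1798, 1908 and 1698 in knockout libraries. Only knockout replicate 3 reached into the control range, and the difference was -0.13 (SE 0.05, adjusted p = 0.217). Atp5g3, which encodes the same mature c subunit, had 4299 ± 236 and 4330 ± 201. Atp5b, the catalytic beta subunit, was the most abundant nuclear member of the complex with 21391 ± 1002 and 20973 ± 659, a difference of -0.028 that became 0.031 with libraries scaled to the same total.

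Atp5g2, the c subunit gene whose difference was second lowest among nuclear members, shares much of its sequence with a processed pseudogene. It had 281, 426, 364 and 404 in controls and 264, 219, 398 and 301 in knockout libraries, a difference of -0.34 (SE 0.19, adjusted p = 0.359). Of its 31-base words 87.7% also occur in Gm10175 (chr7:23946646-23947290), which took 3062 to 3598 in controls and 2862 to 3182 in knockout libraries. Reads of these genes could be split between them by the counting, so Atp5g2 alone is uncertain. Their sum was 3488 to 3981 in controls and 3080 to 3477 in knockout libraries, without overlap, a difference of -0.17 (SE 0.06, adjusted p = 0.168).

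The mitochondrially encoded members are cut from long transcripts of a circular genome, with the heavy-strand promoter serving 12 of them and the light-strand promoter serving mt-Nd6. They were the most abundant transcripts of the chain. Per kilobase, mt-Co1 reached 146777 normalized counts in controls, mt-Co2 125348, mt-Co3 104904, mt-Atp6 99305, mt-Atp8 61503, mt-Cytb 56376, mt-Nd1 46381, mt-Nd4 34109, mt-Nd4l 31466, mt-Nd2 25505, mt-Nd5 21263 and mt-Nd3 12609. The order thus ran from the cytochrome oxidase and ATP synthase subunits through cytochrome b to the complex I subunits. mt-Nd6 stood apart at 420. The median nuclear member had 2404. The libraries were poly(A)-selected, and how fully each mitochondrial transcript was captured was not tested.

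**Figure D4:**
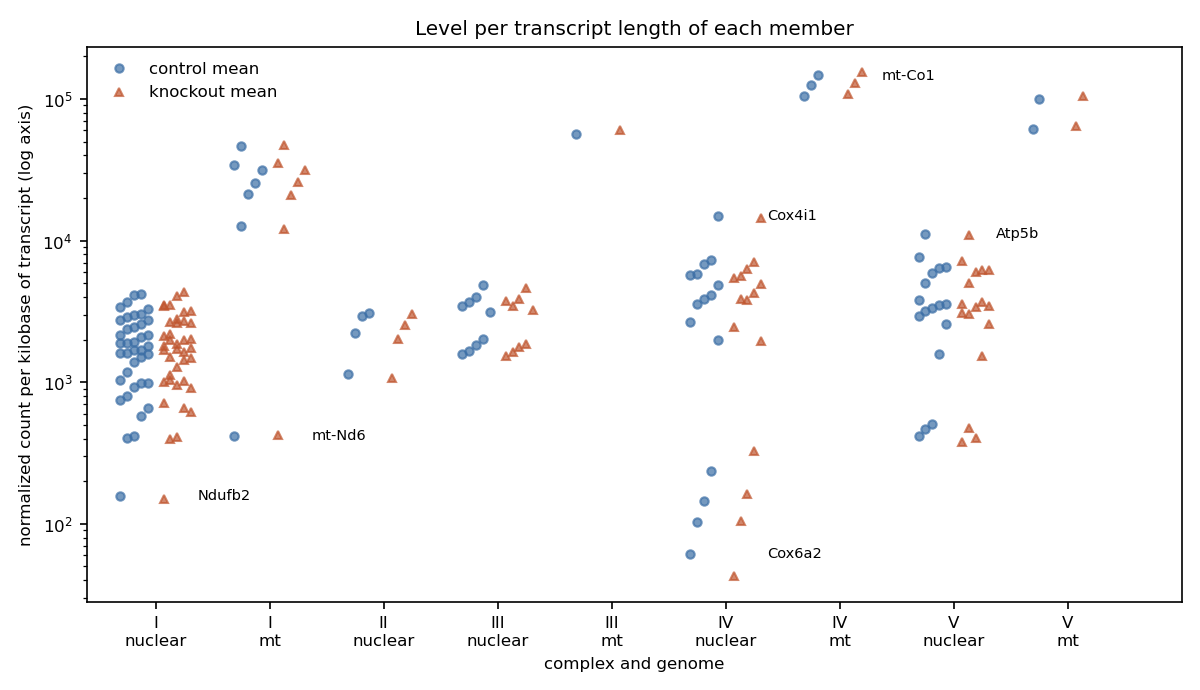
Normalized count per kilobase of annotated transcript (log axis) of every member, by complex and genome, with control means as circles and knockout means as triangles. The mitochondrially encoded members lie above all nuclear members except that mt-Nd3 falls below Cox4i1 and mt-Nd6 lies among the low nuclear members.

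No mitochondrially encoded member passed by limma, edgeR or DESeq2, and none had an unadjusted limma p under 0.05. The differences ran from -0.061 for mt-Nd3 to 0.11 for mt-Cytb, and standard errors were near 0.11. mt-Cytb, the catalytic core of complex III, had 78840, 61005, 58467 and 59665 in controls and 64711, 74145, 67499 and 70013 in knockout libraries. mt-Co1, the catalytic core of complex IV, had 279816, 209172, 204513 and 213584 in controls and 217228, 254176, 240720 and 242187 in knockout libraries, a difference of 0.083 (SE 0.14). Control replicate 1 was the highest of all 8 libraries for each, and the other 3 controls lay below every knockout library.

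That library order recurred across the genome. Control replicate 1 was the highest control for 12 of 13 members, knockout replicate 1 was the lowest knockout library for all 13, and knockout replicate 2 was the highest for 10, with knockout replicate 4 highest for the other 3. The exception among controls was mt-Nd6, for which control replicate 1 was the lowest control and control replicate 3 the highest. Its counts were 196, 222, 257 and 199 in controls and 187, 202, 241 and 244 in knockout libraries, a difference of 0.0023. The members share a library and a few precursor transcripts, so these 13 orders are not independent.

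Control replicate 1 was the most deeply sequenced library (46621080 reads) and had the lowest endothelial and adipocyte sums (36847 and 43876) and the highest fibroblast sum (154537) among controls. Their part in its mitochondrial level was not tested. The summed mitochondrial transcripts were 710019 ± 103520 in controls and 739708 ± 47372 in knockout libraries, a ratio of 1.04 that became 1.12 without control replicate 1 and 1.01 without control replicate 3.

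The remaining mitochondrial members of complex I were near 0. mt-Nd1 had 44386 ± 5767 in controls and 45127 ± 4067 in knockout libraries, mt-Nd2 26474 ± 4036 and 27026 ± 2421, mt-Nd4 47002 ± 7504 and 48849 ± 3124, mt-Nd4l 9345 ± 1664 and 9411 ± 468, and mt-Nd5 38783 ± 3952 and 38539 ± 3719. The complex IV subunits mt-Co2 and mt-Co3 had 85738 ± 10931 and 88714 ± 3104, and 82245 ± 13783 and 85641 ± 6055. The ATP synthase subunits mt-Atp6 and mt-Atp8 had 67627 ± 8746 and 71055 ± 4847, and 12547 ± 2162 and 13233 ± 924. In each of these the groups overlapped.

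Control libraries spread more for mitochondrially encoded than for nuclear members, with control replicate 1 far above the other controls in the mitochondrial sum. That sum was 863659 in this library and 638328 to 673865 in the other controls. The coefficients below include control replicate 1, and the 13 members are not independent. The median coefficient of variation among controls was 15.2% for the 13 and 5.56% for the 84 nuclear members, beside 6.97% for all 6883 genes with a mean of at least 1000. Among knockout libraries it was 6.98%, 5.16% and 6.61%. Control replicate 3 was the lowest control for 50 of 84 nuclear members and for 8 of 13 mitochondrially encoded ones. Among knockout libraries the orders differed. Replicate 4 was lowest for 45 nuclear members and replicate 3 highest for 40, against 0 and 0 of the mitochondrially encoded ones. The ratio of summed mitochondrial to summed nuclear transcripts was 3.63, 2.79, 2.85 and 2.85 in controls and 2.98, 3.51, 3.11 and 3.37 in knockout libraries. Apart from control replicate 1, all controls were below all knockout libraries in this ratio, which is the same within a library under any scaling of libraries.

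**Figure D5:**
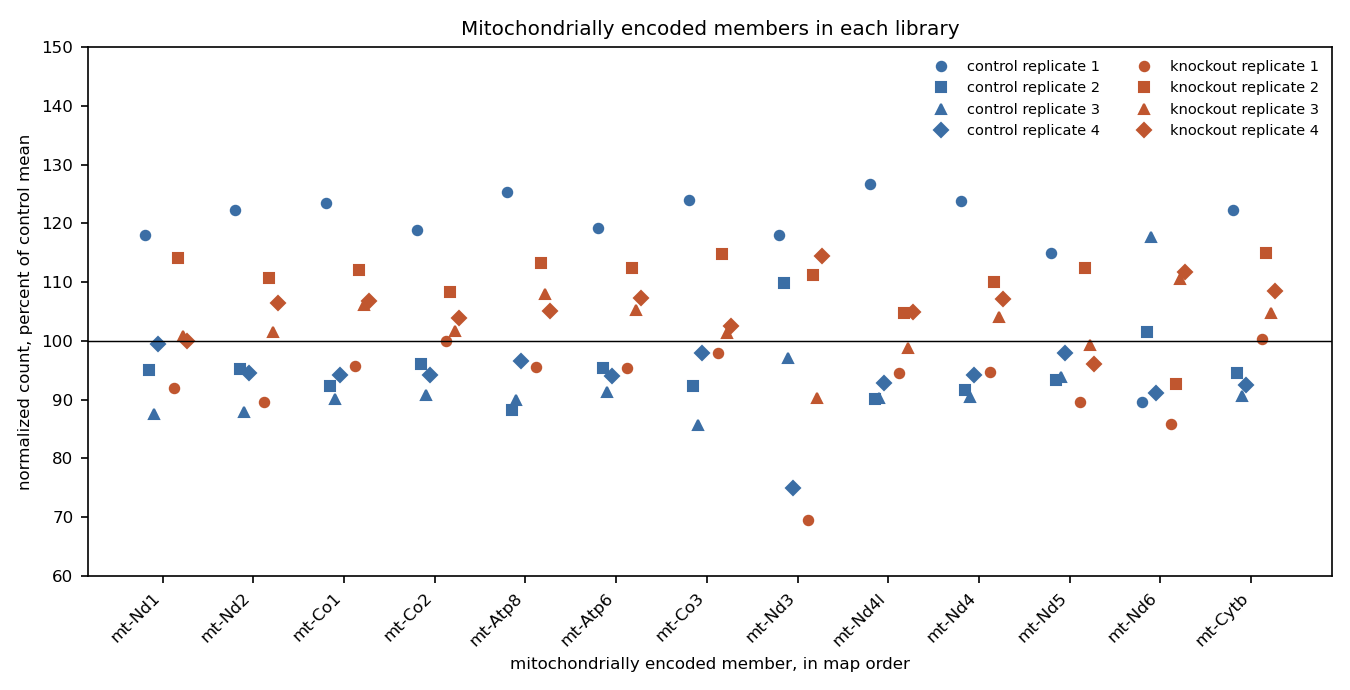
Normalized count of the 13 mitochondrially encoded members in each library as percent of the control mean (vertical axis, from 60 to 150), in the order of the genes on the mitochondrial map. Control replicate 1 lies at the top for 12 genes, and mt-Nd3 and mt-Nd6 depart from the library order of their neighbours.

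The nuclear genome holds copies of mitochondrial sequence on chromosome 1 that have their own rows. Of the 31-base words of mt-Nd3, 98.1% also occur in Gm28438 (chr1:24612775-24613119). mt-Nd3 had 5179, 4820, 4261 and 3291 in controls and 3051, 4878, 3960 and 5019 in knockout libraries, while Gm28438 had 937, 80, 1.1 and 1093 in controls and 1321, 508, 848 and 1.0 in knockout libraries. The 2 libraries with the most Gm28438, control replicate 4 and knockout replicate 1, had the least mt-Nd3. Their sum was 6116, 4900, 4262 and 4384 in controls and 4372, 5386, 4808 and 5020 in knockout libraries. Control replicate 1 stayed the highest control and knockout replicate 1 the lowest knockout library, while the lowest control moved from replicate 4 to replicate 3 and the highest knockout library from replicate 4 to replicate 2. The difference of mt-Nd3 was -0.061 alone and 0.0052 summed, so its value alone is uncertain.

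The same holds for mt-Atp6 and Gm10925 (99.5% of words shared) and for mt-Co2 and Gm28661 (99.5%), where the copies are small beside the gene. Gm10925 ranged from 1.0 to 4445 against 61756 to 80634 for mt-Atp6. mt-Co1 shares 45.2% of its words with Gm13340, which lies on chromosome 2, and 29.6% with Gm29216. Adding the copies left the mt-Atp6, mt-Co1 and mt-Co2 differences at 0.075, 0.082 and 0.056. mt-Co3, mt-Nd4l and mt-Nd4 share 99.9%, 98.9% and 62.8% of their words with Gm28437, Gm10222 and Gm28439. Those copies were not analysed here, so sharing of reads with them was not tested.

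Nuclear respiratory genes are known for promoters that bind NRF1, GABP (an ETS factor) and YY1. RefSeq promoters (250 bases before to 50 after the start, GRCm38.p6) were given for 66 of the 84 nuclear members, and both strands were searched. The NRF1 palindrome was in 7.58% of them, against 2.07% of 11906 genes. The ETS word CCGGAAG was in 25.8% against 17.7%, the YY1 word AAGATGGC in 15.2% against 4.64%, and at least 1 of the 3 in 43.9% against 22.8%. Among the members named above, Ndufa3, Ndufs4 and Ndufb8 held the YY1 word in the first bases of the transcript. Sdhb and Sdhd held the ETS word, as did Atp5md, Cox6a1, Cox6b1, Cox8a and Uqcrh. Atp5g2, Cox6a1 and Uqcrc1 held the NRF1 palindrome. A match describes these letters and shows no binding. The YY1 word contains the letters ATG, and overlap of its matches with start codons was not tested. The windows are printed 5′ to 3′ on the gene's strand with the word, or its reverse complement, in capitals. These words lie at chr7:3617395-3617402 (plus strand) for Ndufa3, chr13:114388052-114388059 (minus) for Ndufs4, chr4:140961277-140961283 (plus) for Sdhb and chr9:50603889-50603895 (minus) for Sdhd.
Ndufa3: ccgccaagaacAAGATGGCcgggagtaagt
Ndufs4: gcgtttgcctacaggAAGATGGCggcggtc
Sdhb: gctcggagaaaCCGGAAGcggccttccact
Sdhd: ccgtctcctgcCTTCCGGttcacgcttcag

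The wider mitochondrial gene set was read from 7 lists of 156 measured genes in all. limma called 1 of them higher and 2 lower, with a median difference of -0.0097, against 1.24% and 2.38% of all genes tested. By DESeq2 2 were higher and 5 lower of the 154 with an adjusted p, against 10.9% of all genes in either direction. Groups did not overlap for 5 of the 156 upward and 13 downward, against 5.52% and 8.21% of all genes. Suclg2, the GTP-forming subunit of succinyl-CoA ligase in the tricarboxylic acid cycle, was the gene that limma called higher. It had 917, 938, 1061 and 991 in controls and 1186, 1304, 1237 and 1207 in knockout libraries, without overlap, a difference of 0.34 (SE 0.06, adjusted p = 0.0263). The step it catalyses makes the succinate that complex II oxidizes. Ogdh, which acts just before it, had 8771 ± 186 in controls and 7826 ± 212 in knockout libraries (difference -0.16, adjusted p = 0.0800). DESeq2 called Suclg2 higher and Ogdh and Cs lower among the 18 cycle genes, against 10.9% of all genes in either direction. The list median was -0.048.

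Carriers of the inner membrane, 13 of them measured, held the 2 genes that limma called lower, against 2.38% of all genes tested. Mpc1, a subunit of the mitochondrial pyruvate carrier, had 1470, 1431, 1334 and 1328 in controls and 1099, 1131, 1238 and 1099 in knockout libraries, a difference of -0.28 (SE 0.06, adjusted p = 0.0421). Slc25a12, the aspartate/glutamate carrier of the malate-aspartate shuttle, had 1212, 1230, 1181 and 1311 in controls and 1002, 1019, 1064 and 1080 in knockout libraries, a difference of -0.24 (SE 0.05, adjusted p = 0.0470). Neither overlapped between groups. Ucp2, the uncoupling protein that macrophages express, was the most abundant carrier with 60857 ± 10270 and 49308 ± 2149 (difference -0.29, adjusted p = 0.197). The median over the 13 measured carriers was -0.15, the lowest of the 7 lists. DESeq2 called Slc25a1 lower besides Mpc1 and Slc25a12, against 10.9% of all genes in either direction.

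Factors that build and supply the chain showed no limma or edgeR call. Among 48 assembly factors 1 was higher and 3 were lower at an unadjusted limma p under 0.05, and the median was -0.00010. Over all genes tested 21.2% had such a p in either direction, and DESeq2 called 10.9%. The differences of the assembly factors ran from -1.57 to 0.25, with 43 of 48 within 0.2 of 0. Coa3, a cytochrome oxidase assembly factor, had 1199, 1087, 995 and 1109 in controls and 1297, 1307, 1335 and 1278 in knockout libraries, without overlap. Its difference was 0.25 (SE 0.06, limma adjusted p = 0.0676), and it was the assembly factor that DESeq2 called. Cox15, which makes heme A, had 1138 ± 59 and 999.9 ± 31.2 (difference -0.19, adjusted p = 0.111). Of 18 genes for mobile carriers and coenzyme Q 1 was higher at an unadjusted limma p under 0.05 (Coq2, difference 0.13), with none called by DESeq2.

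Genes for upkeep and transcription of mitochondrial DNA numbered 30, with 2 higher at an unadjusted limma p under 0.05 and none called by DESeq2. The share with such a p over all genes tested was 21.2% in either direction, here and for the lists below. Mterf2, of a family of mitochondrial transcription factors, had the largest difference, 0.56 (41.6 ± 4.1 in controls, 61.9 ± 7.2 in knockout libraries, adjusted p = 0.0884). Top1mt, the mitochondrial topoisomerase, had 249 ± 15 and 295 ± 28 (difference 0.24, adjusted p = 0.198). Among 15 regulators of respiratory genes 2 were lower at an unadjusted limma p under 0.05 and DESeq2 called none. Esrra, a nuclear receptor that works with PGC-1 coactivators, had 2738, 2751, 2760 and 2969 in controls and 2496, 1693, 2458 and 2277 in knockout libraries, without overlap (difference -0.35, SE 0.12, adjusted p = 0.134). Ppargc1b, which encodes PGC-1 beta, had 332 ± 50 and 255 ± 59 (difference -0.39, adjusted p = 0.234). Of 14 outer membrane and import genes 2 were lower at an unadjusted limma p under 0.05 (Vdac1 and Vdac2, differences -0.13 and -0.17), and DESeq2 called none. The most abundant genes of the 4 lists before it, Coa5, Etfb, Polg and Hcfc1, differed by 0.098, 0.12, 0.076 and -0.050.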

How the data were processed

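RNA was measured in 4 control and 4 knockout libraries, grouped by the genotype label and numbered by title. The authors deposited normalized gene counts, handled as a signal per gene. Salmon, DESeq2, cutadapt, FastQC and mm10 appear in the submitters' processing notes, without versions, roles or order. Within 0.01 reads, 100% of values were whole reads divided by a factor per library (in control replicate 4 one read is worth 0.9983, and only 1.72% of its values over 100 are whole without that factor). The smallest value is 1 read in every library. The authors' deposited comparison holds, per the file headers, mean signal, log2 fold changes of control over knockout, standard errors and test statistics (score columns) and p-values.

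limma 3.58.1 (R 4.3.3, eBayes with trend) was run two-sided on log2(value + 1), without covariates, for genes with a mean of at least 10. edgeR 4.0.16 and DESeq2 1.42.0 were run on the recovered reads as alternatives. Each library was counted as a replicate. Any pair within a group differed beyond counting noise (a chi-square of at least 8.86 per gene), which does not show whether replicates were separate mice. On simulated data limma recovered 187 of 200 changed genes, 100 of 100 at a log2 change of 1 and 87 of 100 at 0.5. That simulation assumed its spread and held no smaller changes, so it gives no recovery rate for them. Levels per kilobase used the principal transcript of GENCODE M21, in which all 97 members were found. Shared sequence was counted in 31-base words. Seed matches were sought in 3' untranslated regions of at least 30 bases. A mature entry for miR-23b-3p was not used here.

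Named genes were all mitochondrially encoded members, members past the threshold, for each complex the 2 nuclear members with the smallest p and the one with the highest level per length, tissue isoforms, the highest and lowest nuclear differences, and for each list the 2 smallest p, the most abundant and any past the threshold. Members and lists were chosen with earlier results of these data known. Other pseudocounts, filters, scalings, weights, a replicate block, left-out libraries and added sequence copies were tried.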

Additional observations from a re-analysis of the deposited data

Results flagged for a closer look

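Of 98 groups of 4 libraries, 13 had 1 library standing far from the other 3 (a gap to the nearest above Dixon's 95% critical value). Chance alone gives this in about 1 in 20 groups, and the mitochondrial values share a library, so they are not separate events. Control replicate 1 stood high for mt-Atp6 (80634, others 61756 to 64499), mt-Co1 (279816, others 204513 to 213584), mt-Cytb (78840, others 58467 to 61005), mt-Nd4 (58205, others 42493 to 44254) and mt-Nd4l (11836, others 8428 to 8678). It did so too for the summed mitochondrial members (863659) and for those of complex III (78840), complex IV (483691) and complex V (96351). The same library stood low for Cox4i2 (104.8, others 188.7 to 204.6).

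Knockout replicate 1 stood high for Ndufa3 (1917, others 1735 to 1759), the member called by limma, whose difference was 0.30 without it. It also stood high for Cox6b2 (67.7, others 58.7 to 59.5). Control replicate 3 stood low for the summed nuclear members (223979, others 236112 to 238187).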

How the results depend on the processing

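Over the 38 named members, the counts, the medians and the sums, 700 of 759 values under alternatives kept direction and call (or stayed within the spread). The count of members called (1) was 3 with DESeq2 and 0 to 1 without single libraries. With the replicate number as a replicate block it was 0, and Ndufa3 kept 0.34 at an adjusted p of 0.210. Same-numbered samples did not deviate together (correlations of -0.2, -0.199, -0.036 and -0.293). No control correlated best with the knockout library of its own number. Such correlations cannot show whether same-numbered samples were paired, and the labels do not state it.

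With libraries scaled to the same total, or to the same total outside the mitochondrial genome, the nuclear median was 0.011 and 0.014, the nuclear sum ratio 1.02 and 1.02 (from 0.975) and that of complex II 0.979 and 0.980. Under these scalings the sign turned for mt-Nd5 (0.050 and 0.052), Sdha (0.023 and 0.025), Cox4i1 (0.0098 and 0.012), Atp5b (0.031 and 0.033), Cox6a1 (0.016 and 0.019), Cox6b1 (0.0034 and 0.0058) and Ndufa4 (0.040 and 0.042), and under the second for mt-Nd3 (0.00035). With quantile normalization it turned for mt-Nd5 (0.096), mt-Nd6 (-0.12), Sdha (0.020), Cox4i1 (0.031), Atp5b (0.027), Cox6b2 (-0.090) and Ndufa4 (0.019), with array weights for mt-Nd5 (0.038), mt-Nd6 (-0.052), Atp5b (0.017) and Ndufa4 (0.032), and with copies added, chosen after seeing the data, for mt-Nd3 (0.0052).

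Without single libraries, ranges crossed 0 for mt-Nd1 (-0.033 to 0.11), mt-Nd2 (-0.022 to 0.14), mt-Nd3 (-0.19 to 0.087), mt-Nd4l (-0.020 to 0.14), mt-Nd5 (-0.070 to 0.060), mt-Nd6 (-0.053 to 0.083), Cox6b2 (-0.068 to 0.11), Cox7a2l (-0.016 to 0.043), Atp5g3 (-0.024 to 0.038), Atp5b (-0.053 to 0.00037) and Ndufa4 (-0.062 to 0.028). The cause was not tested. Counts near 30 to 70 (Cox6a2, Cox6b2, Cox7a1) carry large counting error.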
